A study of Mus musculus with 16 samples.

Results

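The genes described here encode 10 proteins of the red cell membrane: Rhag, Rhd, Ank1, Aqp1, Ermap, Epb42, Slc4a1, Sptb, Cldn13 and Mfsd2b. They were taken by name, each through its probe sets that carry a single gene symbol, with the brightest probe set by its mean over all arrays. All 10 were on the array, out of 22180 genes with such a probe set. Their log2 signals were read on 16 arrays of myeloid progenitors sorted from the bone marrow of wild-type C57BL/6 mice. Mice drank for 3 weeks either control water with 2% sucrose or the same sweetened water with ampicillin, metronidazole, neomycin and vancomycin at 1 g/L each. Common myeloid progenitors (CMPs, lineage-negative, Kit+, CD105-, CD115-, intermediate CD16/32) had 3 control and 3 antibiotic arrays. Granulocyte-monocyte progenitors (GMPs, the same but high CD16/32) had 2 control and 3 antibiotic arrays, and committed monocyte progenitors (cMoPs, lineage-negative, Kit+, CD105-, CD115+, Ly6C+) also had 2 and 3. The lineage antibodies included Ter119, which binds maturing red cells, and one against Sca-1. The labels do not say whether an array came from 1 mouse or from a pool, or whether the arrays came from separate mice, so the p-values measure only the spread between these samples.

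The red cell membrane is a lipid bilayer held to a spectrin lattice on its inner face. Ankyrin, encoded by Ank1, ties beta-spectrin (Sptb) to the anion exchanger band 3 (Slc4a1), protein 4.2 (Epb42) braces that link, and the Rh proteins (Rhag and Rhd) sit in the same complex. Progenitors switch on the genes of this membrane at different steps of red cell formation, under transcription factors such as GATA1 and KLF1, and the granulocyte and monocyte branches do not build it. A CMP gate on Kit and CD16/32 is known to hold cells that go on to the red cell and megakaryocyte branches beside those that become granulocytes and monocytes, and CD105 (endoglin) marks the early cells of the red cell branch.

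Promoters were looked at because the genes shared a pattern over the arrays. A promoter reference on GRCm38.p6, separate from the RefSeq gene spans, held a start region for 7 of the 10 members. It had none for Ank1, Slc4a1 and Cldn13. In the 250 bases before the start, the GATA motif, AGATAA or TGATAA on either strand, was present in 4 of these 7 (Rhag, Rhd, Ermap and Epb42). It was present in 16.6% of the 32851 start regions of the same length over all genes. The motif CCNCNCCC, the form bound by KLF factors, on either strand, was in 3 of the 7 (Aqp1, Mfsd2b and Sptb) against 45.9% over all, and no base is shared between the matches of these motifs, since no member held both. The shorter CACCC, on either strand, which can overlap CCNCNCCC, was in 6 of the 7 and in 52.0% over all. A match describes the letters only. The regions with a GATA match follow, each 5′ to 3′ along the gene, with the match in capitals on whichever strand it lies. For Rhag the match lies inside the span of the RefSeq gene, 31 bases before the start used by the promoter reference, and only the bases around it are shown.
Rhag, chr17:40811107-40811134, plus strand: gtcctctgctcTTATCAacactatacag
Rhd, chr4:134864286-134864535, plus strand: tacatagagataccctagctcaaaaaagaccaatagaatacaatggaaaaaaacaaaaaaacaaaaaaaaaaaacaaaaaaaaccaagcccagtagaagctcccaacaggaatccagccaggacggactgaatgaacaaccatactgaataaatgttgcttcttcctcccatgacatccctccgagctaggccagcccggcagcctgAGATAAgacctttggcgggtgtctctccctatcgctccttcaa
Ermap, chr4:119190014-119190245, minus strand: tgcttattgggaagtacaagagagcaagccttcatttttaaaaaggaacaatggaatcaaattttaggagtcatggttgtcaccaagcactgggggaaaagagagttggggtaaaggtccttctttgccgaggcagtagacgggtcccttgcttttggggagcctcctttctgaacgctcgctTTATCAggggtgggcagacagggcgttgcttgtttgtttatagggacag
Epb42, chr2:121036878-121037127, minus strand: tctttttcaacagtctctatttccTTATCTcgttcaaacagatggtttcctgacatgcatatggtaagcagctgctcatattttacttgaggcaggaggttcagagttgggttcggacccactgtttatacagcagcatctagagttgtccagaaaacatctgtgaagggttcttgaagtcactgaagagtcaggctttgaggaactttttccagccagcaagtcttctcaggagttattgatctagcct
The match began 43 bases before the start in Rhd and 226 in Epb42, where the printed stretch ends at the start. In Ermap it began 67 bases before the start used by the promoter reference. The last 18 bases of that window lie inside the span of the RefSeq gene and are left out, so the match begins 49 bases before the end of the printed stretch.

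Of these genes of the red cell membrane, 9 had more signal in CMPs than in GMPs and cMoPs, though Epb42 was only just above background in CMPs. Over both waters 9 of the 10 members fell from CMPs to GMPs and 9 fell from CMPs to cMoPs. Slc4a1, only just above background in control CMPs, was the one that did not pass in either comparison. Between 2.30-fold (Epb42) and 37.6-fold (Ermap) separated GMPs from CMPs. By contrast, of the 10 members only Mfsd2b was called between GMPs and cMoPs. Antibiotic water changed no member past the study's threshold in any progenitor.

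In the limma fit, called means a Benjamini-Hochberg adjusted p under 0.05 between progenitors and under 0.2, the rate of the stated design, between waters. A total of 8.17% of all genes were called lower in GMPs than in CMPs, and 1.89% were called lower by at least 2-fold, which held for 9 of the 10 members. The members were chosen with earlier results of these data known, so these shares are a description and not an independent test. From CMPs to cMoPs 9.20% of all genes were called lower, and 2.56% by at least 2-fold. The median difference of the members was -3.72 in GMPs and -4.14 in cMoPs, beside 0.03 and 0.04 over all genes. In the same 9 members every GMP array and every cMoP array lay below every CMP array, which held for 5.75% and 6.33% of all genes. In a bulk sample, fewer cells of a type and less RNA per cell cannot be told apart.

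**Figure D1:**
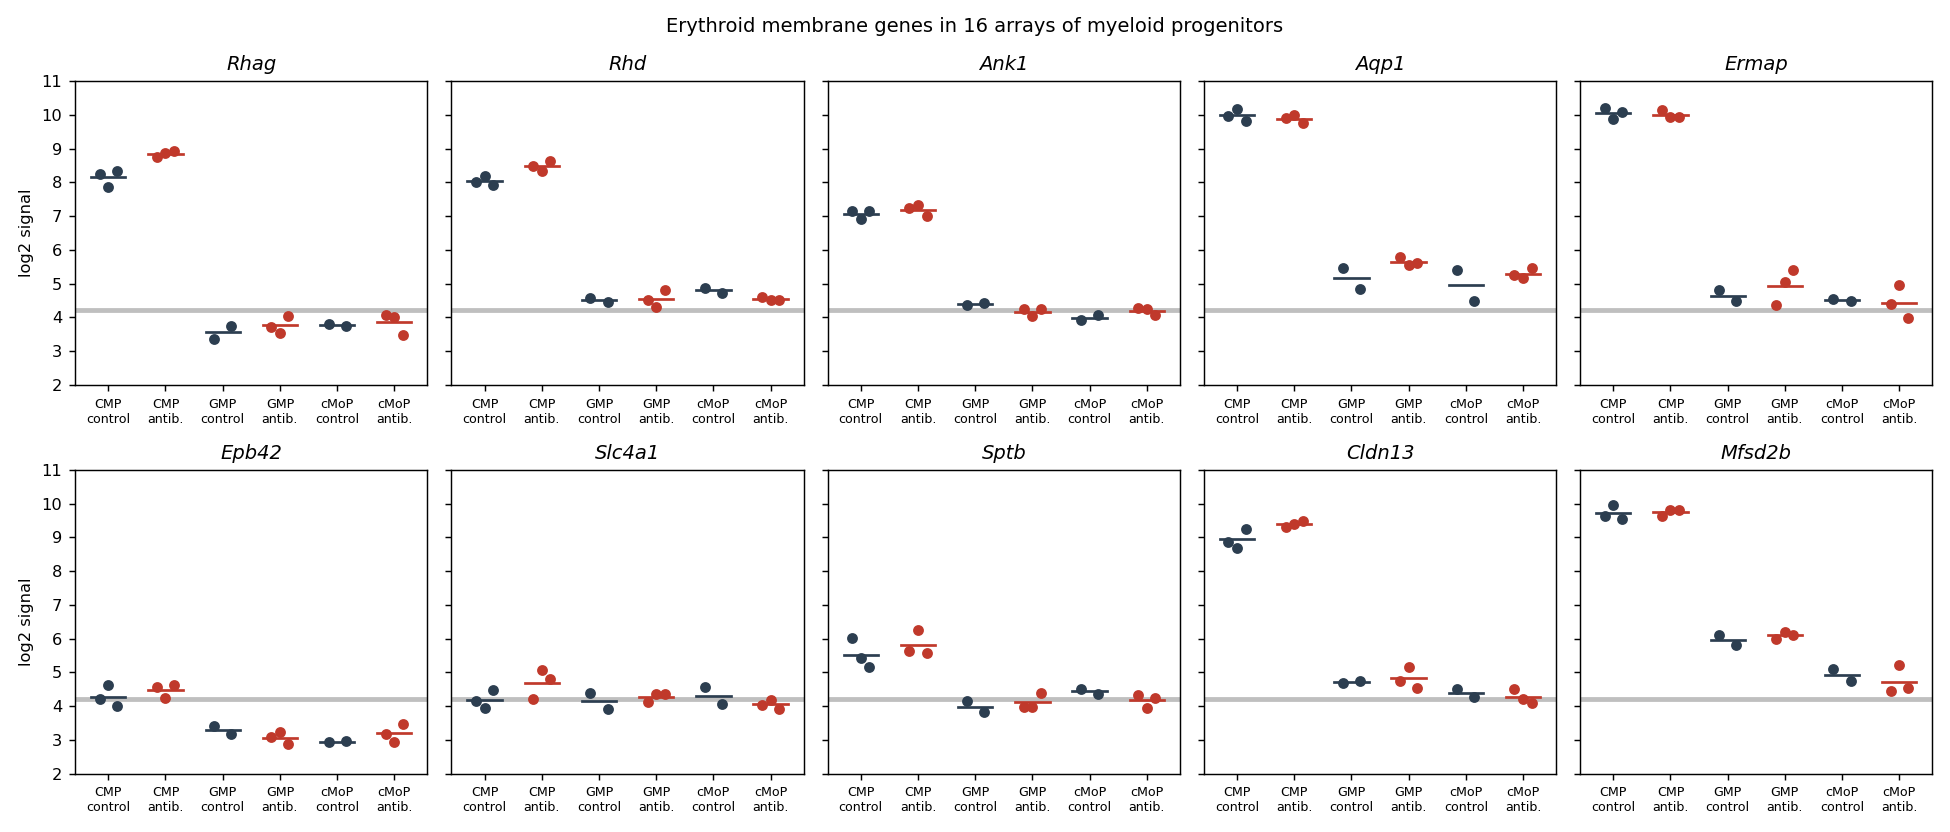
Log2 signal (vertical axis) of each of the 10 genes in each array, by progenitor and water on the horizontal axis. Points are arrays, dark for control and red for antibiotic water, bars are group means, and the grey band spans 4.15 to 4.25, the 95th percentile of odorant receptor genes in the 6 groups. In all genes but Slc4a1 the 6 CMP arrays lie above the other 10.

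The table has no detection calls. As a yardstick, 1105 odorant receptor genes, which these cells are not known to use, had a 95th percentile of their group means between 4.15 and 4.25, and a group mean at or below that of its own group is not shown to be above background. All 10 members were above it in both CMP groups, though Slc4a1 (4.19) and Epb42 (4.28) were only just above it in control CMPs. In GMPs 4 members were at or below it in each group (Rhag, Epb42 and Sptb in both, Slc4a1 in control and Ank1 in antibiotic water). In cMoPs 3 were in control water (Rhag, Ank1 and Epb42) and 5 in antibiotic water, where Slc4a1 and Sptb joined them. Where the lower level is of this kind, the size of the fall is uncertain.

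Of the Rh complex, Rhag encodes the Rh-associated glycoprotein, an ammonia channel that the complex needs to reach the membrane (probe set 17337706, chr17:40811099-40844094). Its log2 signal in CMPs was 8.26, 7.86 and 8.33 in control and 8.75, 8.88 and 8.93 in antibiotic water. In GMPs it was 3.37 and 3.76 in control and 3.73, 3.55 and 4.03 in antibiotic water, and in cMoPs 3.8 and 3.76, then 4.07, 4 and 3.49. CMPs thus stood apart from both later progenitors, whose arrays all lay under the odorant receptor level. The difference was -4.83 ± 0.14 (SE) in GMPs, 28.5-fold (adjusted p = 2.93e-12), and -4.69 ± 0.14 in cMoPs, 25.7-fold (adjusted p = 1.35e-12).

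Rhd encodes the Rh blood group protein, the partner of Rhag in the complex (probe set 17419799, chr4:134864536-134896172). CMP arrays read 8, 8.18 and 7.92 in control and 8.49, 8.35 and 8.64 in antibiotic water. GMP arrays read 4.58 and 4.46 in control and 4.53, 4.3 and 4.81 after antibiotics, and cMoP arrays 4.88 and 4.72, then 4.61, 4.52 and 4.51. GMPs and cMoPs overlapped, at group means of 4.52 to 4.80 that were above the odorant receptor level. GMPs were 13.3-fold (-3.73 ± 0.10) and cMoPs 12.04-fold (-3.59 ± 0.10) below CMPs, at the same adjusted p as Rhag in each comparison. Over the 16 arrays Rhag and Rhd were each other's closest member (Pearson r = 0.99).

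Of the scaffold genes, Ank1 encodes the ankyrin of red cells (probe set 17500005, chr8:22974836-23150501). CMP arrays read 7.14, 6.93 and 7.14 in control and 7.25, 7.32 and 7 in antibiotic water. GMP arrays read 4.37 and 4.43, then 4.25, 4.03 and 4.25, and cMoP arrays 3.93 and 4.06, then 4.28, 4.25 and 4.08. No GMP or cMoP array came within 2 log2 units of a CMP array. The difference was -2.84 ± 0.09 in GMPs (7.17-fold, adjusted p = 1.00e-11) and -3.03 ± 0.09 in cMoPs (8.17-fold, adjusted p = 2.91e-12). Its second probe set, 17508125, was dimmer in CMPs, with a mean of 5.52 ± 0.32 (SD, n = 3) in control and 6.02 ± 0.52 (n = 3) in antibiotic water, and read 4.33 to 4.58 as group means in GMPs and cMoPs. As the mean of both probe sets the GMP difference was -2.06 and the cMoP difference -2.17, both still called.

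Sptb encodes beta-spectrin, a rod of the lattice under the membrane (probe set 17282025, chr12:76580488-76710547). CMP arrays read 6.01, 5.42 and 5.15 in control and 5.62, 6.26 and 5.58 in antibiotic water. GMP arrays read 4.16 and 3.82, then 3.99, 3.98 and 4.38, and cMoP arrays 4.5 and 4.37, then 4.33, 3.95 and 4.24. The lowest CMP array was still above the highest of the others. GMPs were 3.07-fold (-1.62 ± 0.17, adjusted p = 2.86e-06) and cMoPs 2.58-fold (-1.37 ± 0.17, adjusted p = 1.43e-05) below CMPs.

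Epb42, protein 4.2, was just above the odorant receptor level in CMPs (probe set 17390371, chr2:121017891-121036877). CMP arrays read 4.21, 4.62 and 4.01 in control and 4.58, 4.24 and 4.64 in antibiotic water. GMP arrays read 3.4 and 3.18, then 3.09, 3.24 and 2.88, and cMoP arrays 2.94 and 2.96, then 3.18, 2.94 and 3.47. The CMP arrays did not overlap with those of GMPs and cMoPs, which overlapped with each other and whose 4 group means were at background by this yardstick. The difference was -1.20 ± 0.13 in GMPs (2.30-fold, adjusted p = 6.51e-06) and -1.31 ± 0.13 in cMoPs (2.48-fold, adjusted p = 2.02e-06).

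Slc4a1, band 3, the anion exchanger to which ankyrin and protein 4.2 bind, showed no such step (probe set 17270162, chr11:102348820-102365281). Its control CMP mean of 4.19 was only just above the odorant receptor level, so a step could be missed at this signal. CMP arrays read 4.15, 3.96 and 4.47 in control and 4.21, 5.06 and 4.79 in antibiotic water. GMP arrays read 4.39 and 3.92, then 4.12, 4.37 and 4.36, and cMoP arrays 4.57 and 4.06, then 4.03, 4.19 and 3.93. All neighbouring groups overlapped, and only 2 arrays, both of CMPs after antibiotics, exceeded 4.57. The difference was -0.22 ± 0.16 in GMPs (adjusted p = 0.429) and -0.26 ± 0.16 in cMoPs (adjusted p = 0.315). Within control water the cMoP difference was 0.12 and within antibiotic water -0.64 (adjusted p = 0.062).

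Of the channels, transporters and surface proteins, Aqp1 is the water channel of red cells, also made by endothelium (probe set 17458813, chr6:55336299-55348555). CMP arrays read 9.96, 10.17 and 9.83 in control and 9.91, 9.99 and 9.76 in antibiotic water. GMP arrays read 5.46 and 4.85, then 5.78, 5.54 and 5.61, and cMoP arrays 5.41 and 4.49, then 5.25, 5.16 and 5.46. All 4 lower group means were above the odorant receptor level, and 1 control array of GMPs and 1 of cMoPs stood below the others of their progenitor. GMPs were 23.2-fold (-4.54 ± 0.16, adjusted p = 1.18e-11) and cMoPs 28.2-fold (-4.82 ± 0.16, adjusted p = 3.74e-12) below CMPs.

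Ermap is an immunoglobulin-like protein of the erythroblast surface that carries the Scianna blood group in humans (probe set 17429316, chr4:119175457-119190013). CMP arrays read 10.19, 9.89 and 10.09 in control and 10.14, 9.93 and 9.94 in antibiotic water. GMP arrays read 4.81 and 4.49, then 4.36, 5.06 and 5.41, and cMoP arrays 4.55 and 4.49, then 4.39, 4.95 and 3.97. The CMP arrays lay between 9.89 and 10.19, far above the highest of the others at 5.41, and GMPs and cMoPs overlapped. The fall was 37.6-fold in GMPs (-5.23 ± 0.18, adjusted p = 1.63e-11) and 46.9-fold in cMoPs (-5.55 ± 0.18, adjusted p = 5.25e-12).

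Cldn13 encodes a claudin found in red cell precursors of rodents (probe set 17453492, chr5:134914250-134915530). CMP arrays read 8.87, 8.68 and 9.26 in control and 9.29, 9.4 and 9.47 in antibiotic water. GMP arrays read 4.69 and 4.75, then 4.76, 5.17 and 4.55, and cMoP arrays 4.51 and 4.27, then 4.5, 4.21 and 4.08. Every cMoP array lay below every GMP array. GMPs were 20.9-fold (-4.39 ± 0.13, adjusted p = 4.09e-12) and cMoPs 28.5-fold (-4.84 ± 0.13, adjusted p = 8.27e-13) below CMPs.

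Mfsd2b exports sphingosine-1-phosphate from red cells and platelets (probe set 17279864, chr12:4862438-4874359). CMP arrays read 9.63, 9.97 and 9.53 in control and 9.63, 9.81 and 9.8 in antibiotic water. GMP arrays read 6.1 and 5.81, then 5.98, 6.2 and 6.11, and cMoP arrays 5.11 and 4.76, then 4.44, 5.21 and 4.53. The 3 progenitors formed 3 separate steps, with no overlap between any pair. GMPs were 13.02-fold (-3.70 ± 0.14, adjusted p = 3.91e-11) and cMoPs 29.8-fold (-4.90 ± 0.14, adjusted p = 1.35e-12) below CMPs.

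**Figure D2:**
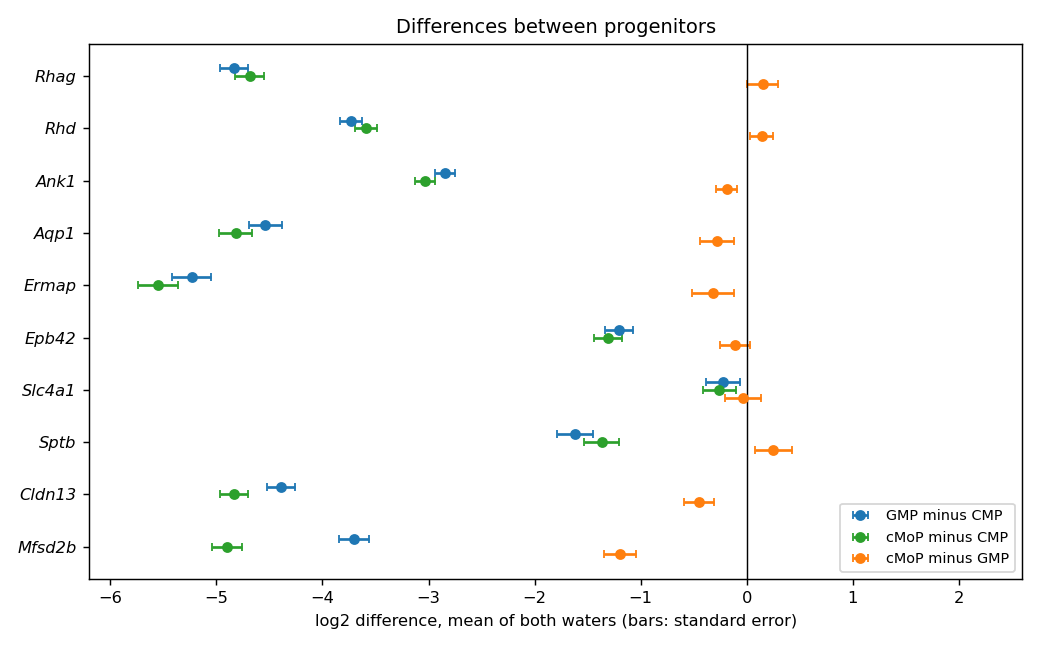
Log2 difference between progenitors (horizontal axis), averaged over both waters, for each gene, with its standard error. Of the 10 genes, 9 lie left of -1 for GMP minus CMP and for cMoP minus CMP, and Mfsd2b alone does so for cMoP minus GMP.

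Between the 2 later progenitors the members differed little. Mfsd2b fell a further 2.29-fold from GMPs to cMoPs (-1.20 ± 0.15, adjusted p = 7.73e-05), and was the 1 member called, where 2.82% of all genes were called lower and 0.816% lower by at least 2-fold. Cldn13 differed by -0.45 ± 0.14 (adjusted p = 0.0877), with an adjusted p between 0.048 and 0.655 over the alternatives. For Cldn13 and Mfsd2b every cMoP array lay below every GMP array, as it did for 3.17% of all genes. The other 8 had differences from -0.32 (Ermap) to 0.25 (Sptb), 3 of them above 0, and adjusted p of 0.39 or more.

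Ordered by group mean, both CMP groups came first in 9 members, and the next group did not overlap with the lower of them. The control and antibiotic CMP arrays overlapped in 6 of these 9 and lay apart in Rhag, Rhd and Cldn13. Among the 4 groups of GMPs and cMoPs most neighbours in the order overlapped. Exceptions were GMP control above cMoP antibiotic for Ank1, GMP antibiotic above cMoP antibiotic for Aqp1, cMoP control above cMoP antibiotic for Sptb, and GMP control above cMoP control for Cldn13 and Mfsd2b.

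Antibiotic water was compared with control water to ask whether it altered these genes within a progenitor. In CMPs 8 of 10 members had a positive difference (48.1% of all genes did), with a median of 0.25 beside -0.01 over all genes. Limma called 0 members, where 0.0406% of all genes were called in either direction. At an unadjusted p under 0.05 there were 4, namely Rhag, Rhd, Slc4a1 and Cldn13, where 7.24% of all genes reached it. With the plain variances of the methods' analysis of variance 0 members were called as well.

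For Rhag the 3 antibiotic arrays (8.75 to 8.93) all lay above the 3 control arrays (7.86 to 8.33), and the difference was 0.70 ± 0.18 (95% interval 0.32 to 1.09, limma adjusted p = 0.357). Rhd differed by 0.46 ± 0.14 (0.16 to 0.76, limma adjusted p = 0.474) and Cldn13 by 0.45 ± 0.18 (0.07 to 0.83, limma adjusted p = 0.616), also without overlap. Complete separation upwards held for these 3 members, and for 5.21% of all genes. Slc4a1 differed by 0.49 ± 0.21 with overlapping arrays (0.04 to 0.95, limma adjusted p = 0.666). Differences of the other 6 members in CMPs lay between -0.10 (Aqp1) and 0.29 (Sptb). Aqp1, Ermap and Mfsd2b, all with a bright CMP signal, were within 0.10 of 0, with intervals of -0.54 to 0.34, -0.58 to 0.47 and -0.37 to 0.44.

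In GMPs differences ran from -0.22 (Ank1) to 0.49 (Aqp1), and in cMoPs from -0.27 (Slc4a1) to 0.34 (Aqp1). They were above 0 in 8 members in GMPs and 4 in cMoPs, beside 47.6% and 47.8% of all genes. Limma called 0 members in either progenitor, where 0.0721% and 0.131% of all genes were called, and 0 had an unadjusted p under 0.05, which 7.49% and 6.20% of all genes had. In GMPs Aqp1 lay wholly above control (difference 0.49, interval -0.0043 to 0.98) and Ank1 wholly below. In cMoPs Ank1 lay wholly above control, and Rhd and Sptb wholly below. With 3 arrays against 2, 10.4% of all genes lay wholly above and 12.6% wholly below in GMPs, and 9.59% and 11.4% in cMoPs.

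As the mean of the 3 progenitors, differences ran from -0.01 (Mfsd2b) to 0.33 (Rhag), 9 of them above 0 (45.8% of all genes were), with a median of 0.08. Rhag (0.33 ± 0.11, limma adjusted p = 0.364) was the 1 member at an unadjusted p under 0.05, which 9.54% of all genes reached, and limma called 0 members, where 0.514% of all genes were called. The F test on the interaction of water and progenitor called 0 members, where it called 0.00451% of all genes. At an unadjusted p under 0.05 it had 1 member, Rhd (limma adjusted p = 0.772), and 5.79% of all genes.

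**Figure D3:**
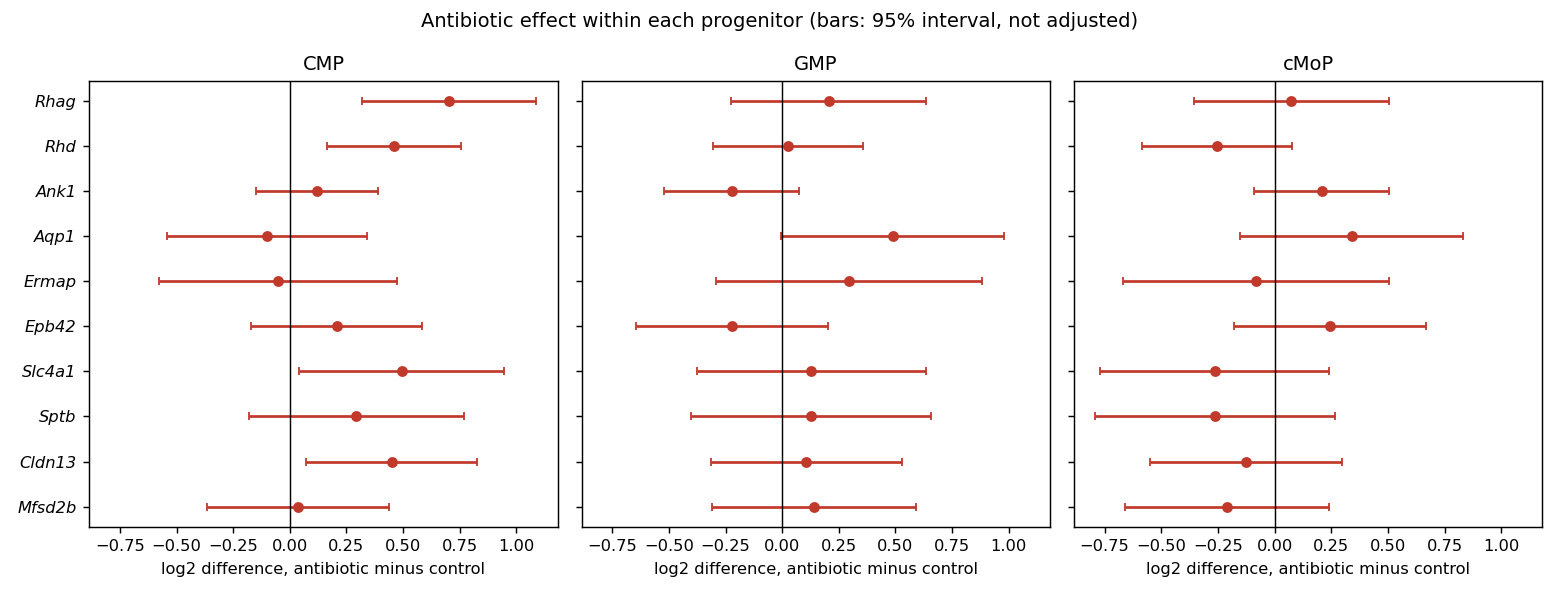
Log2 difference of antibiotic minus control arrays (horizontal axis) for each gene in CMPs, GMPs and cMoPs, with 95% intervals not adjusted for the number of genes. In CMPs the intervals of Rhag, Rhd, Slc4a1 and Cldn13 lie above 0, and none of the 10 passed the adjusted test in any progenitor.

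The list of other genes of the membrane and its skeleton was mixed. It also held relatives of the members that are not known as red cell genes. Of these, Ank2, Ank3, Rhbg, Rhcg, Mfsd2a and Cldn15 were at background in both CMP groups, while Slc4a2 and Cldn12 were above it. The counts and the median of the list are therefore not of red cell membrane genes alone. Of 44 listed, 41 were measured, and 17 fell and 6 rose from CMPs to GMPs, with a median of -0.13. Those of smallest p were Kel, the Kell blood group protein (-3.79 ± 0.13), Abcb4, a phospholipid transporter (-4.39 ± 0.16), Atp1b2, a subunit of the sodium pump (-3.68 ± 0.16), and Tfr2, transferrin receptor 2 (-2.05 ± 0.11), with adjusted p of 1.20e-09 or less. Add2, beta-adducin of the spectrin junctions, fell by 2.19. The spectrins of other cell types moved the other way: Sptan1 rose by 0.79 ± 0.09 (adjusted p = 8.58e-06) and Sptbn1 by 0.78 ± 0.09 (adjusted p = 1.47e-05). Tmod1, which caps actin at the spectrin junctions, and Dmtn, dematin, were at background in all 6 groups. Add2, Sptan1, Sptbn1, Tmod1 and Dmtn were singled out after their values were seen. From GMPs to cMoPs 7 of the 41 fell and 0 rose, among them Tfr2 (-1.25 ± 0.11), Atp1b2 (-1.04 ± 0.17) and Kel (-0.51 ± 0.14, adjusted p = 0.0461). The call of Kel was lost within either water and without 1 array in most cases (adjusted p up to 0.518), and that of Atp1b2 within antibiotic water. At the 0.2 rate 1 of the 41 was called for water as the mean of the progenitors, Bcam, the Lutheran blood group protein (-0.32 ± 0.08, limma adjusted p = 0.196), and that call too was lost in most of the leave-one-out fits (limma adjusted p up to 0.372).

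Regulators and enzymes of the red cell branch fell with the membrane genes. Of 23, 21 fell from CMPs to GMPs and all 23 from CMPs to cMoPs, where 8.17% and 9.20% of all genes were called lower. The medians of the list were -2.27 and -2.996. Its genes are not all particular to this branch: Gata2 is also in the stem list, and Myb was at 11.64 in control CMPs and 11.67 in control GMPs. Gata1, the transcription factor of the branch, fell by 2.98 ± 0.12 to GMPs (adjusted p = 9.62e-11) and Gfi1b, a repressor it works with, by 3.94 ± 0.13 (adjusted p = 1.00e-11). Some genes of this list, such as Add2, are also in the list of membrane genes. Car1, a carbonic anhydrase of red cells, fell by 4.41 ± 0.13 over both waters, with -5.25 within control and -3.56 within antibiotic water. Slc25a21, a mitochondrial carrier, fell by 3.01 ± 0.12. For antibiotic water 1 of the 23 was called higher in GMPs and as the mean of the progenitors, which was Car1 both times (1.78 ± 0.20 in GMPs, limma adjusted p = 0.00308, and 0.86 ± 0.11 as the mean, limma adjusted p = 0.00517). Of 18 late red cell genes 6 were measured through a single-symbol probe set, of which 1 fell and 1 rose from CMPs to GMPs. The one that rose was Slc25a37, mitoferrin, the iron carrier of mitochondria (0.61 ± 0.13, adjusted p = 0.00257, and 0.0986 within control water). Bpgm, the enzyme that makes bisphosphoglycerate, differed by 0.02 ± 0.14 (adjusted p = 0.957). Hba-x, Hbb-bh1 and Hbb-y, the embryonic globins, were at background in CMPs, and Tspo2, a cholesterol-binding protein of late precursors, was at 7.89 ± 0.48 (SD, n = 3) in control CMPs and fell by 3.82 ± 0.21 to GMPs (adjusted p = 1.79e-09).

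**Figure D4:**
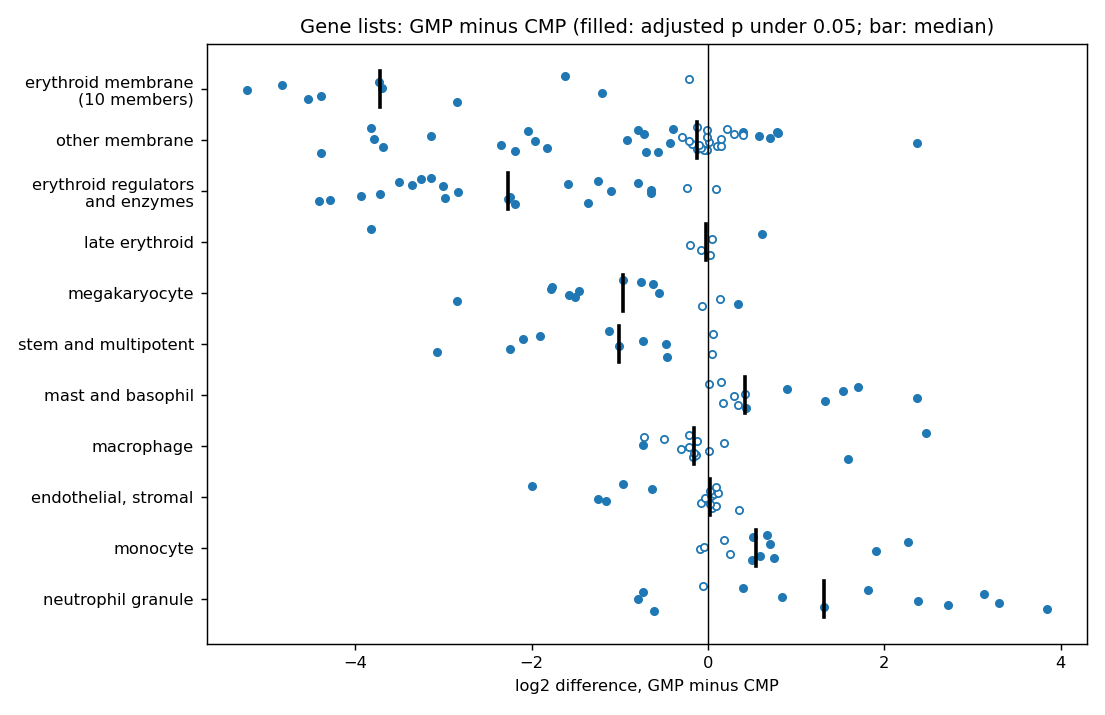
Log2 difference of GMP minus CMP (horizontal axis) of every measured gene in the 10 membrane genes and 10 other lists. Filled points have an adjusted p under 0.05 and bars mark list medians, which are -3.72 for the membrane genes, -2.27 for regulators and enzymes and -0.13 for other membrane genes. The list of other membrane genes also holds relatives of the members that are not known as red cell genes.

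Markers of other cells also differed between the progenitors. Megakaryocyte genes fell in 10 of 13 and rose in 1 from CMPs to GMPs. Gp5 (-2.85 ± 0.18) and Itga2b (-1.58 ± 0.17) were among those that fell. The log2 of their summed signal per array was 11.05 to 11.42 in control CMPs, 10.64 to 10.73 in control GMPs and 10.33 to 10.34 in control cMoPs. Most of this sum in GMPs and cMoPs came from Fli1, with means of 9.93 in control CMPs, 10.205 in control GMPs and 10.025 in control cMoPs. In both cMoP groups 8 of the 13 genes were at background. Stem and multipotent genes fell in 9 of 11, among them Flt3 (-3.07 ± 0.12) and Meis1 (-2.10 ± 0.12). Endothelial and stromal genes fell in 5 of 16, led by Tek (-2.00 ± 0.12) and Egfl7 (-1.16 ± 0.11). Their log2 summed signal was 9.53 to 9.59 in control CMPs, 9.26 to 9.32 in control GMPs and 9.47 to 9.61 in control cMoPs, the last overlapping with CMPs. Most of this sum came from Pecam1, with means of 8.65 in control CMPs, 8.635 in control GMPs and 8.975 in control cMoPs. Of the 16, 7 were at background in both CMP groups (Cdh5, Kdr, Stab2, Cldn5, Lepr, Kitl and Pdgfra), and the others were above it, among them Pecam1 at a mean of 8.65 in control CMPs, Egfl7 at 6.22 and Tek at 5.58. Of 14 macrophage genes 2 rose and 1 fell, and their log2 summed signal was 9.63 to 9.86 in control CMPs, 9.44 to 9.57 in control GMPs and 8.65 to 8.68 in control cMoPs. In CMPs 4 of them were at background (Adgre1, Mertk, Cd5l and Timd4), and the others were above it, among them Hmox1 at a mean of 8.18 in control CMPs and Slc40a1 at 7.62. Other lists had more rises than falls from CMPs to GMPs. Of 12 mast and basophil genes 6 rose and 0 fell, of 12 monocyte genes 8 rose and 0 fell, and of 13 neutrophil granule genes 9 rose and 3 fell. Over all 22180 genes 3558 were called between GMPs and CMPs in either direction, 1813 of them lower in GMPs. Of the mast and basophil genes 7 were at background in both CMP groups and 6 in both GMP groups. Vwf is counted in both the megakaryocyte and the endothelial list. The part of megakaryocyte, stem, endothelial and macrophage RNA in the result was not tested.

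The genes of the sort gate followed the labels in part. Fcgr3, one of the CD16/32 genes, was 3.14 ± 0.15 higher in GMPs than in CMPs (adjusted p = 3.38e-10), and Csf1r, the CD115 gene, was 1.95 ± 0.13 higher in cMoPs than in GMPs (adjusted p = 2.68e-07). Eng, the gene of CD105, which the gate excludes, had RNA at 8.5 ± 0.22 (SD, n = 3) in control CMPs and 7.02 ± 0.30 (n = 2) in control GMPs, with a GMP minus CMP difference of -1.62 ± 0.18 over both waters (adjusted p = 6.26e-06). Its part in the result was not tested. Array medians lay between 4.04 and 4.17, and arrays of 1 group correlated across genes at 0.985 to 0.991, where genes are not independent replicates.

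As a description over the 16 arrays, which share their progenitor groups, the 45 pairs of members had a median Pearson r of 0.94 (0.29 to 0.99). Each member's r with the mean of the other 9 was 0.931 or more, except for Slc4a1 at 0.425. After each group's mean was subtracted, the median r of the pairs was 0.07, so the likeness lay between the groups. The 10 genes outside the list most like the members' mean had r of 0.986 to 0.995. They were Ctse (cathepsin E), Dntt (the terminal transferase of lymphoid precursors), Slc25a21, Tspan8, Abcb4, Pklr (the pyruvate kinase of liver and red cells), Kel, Gm15915, Hemgn (a nuclear protein of blood precursors) and Epdr1. Their falls from CMPs to GMPs ran from -3.01 (Slc25a21) to -5.31 (Dntt).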

How the data were processed

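RNA of sorted progenitors, 2.6 ng per sample, was amplified and labelled with biotin for arrays, per the labels' protocols. The deposited values are log2 signals of probe sets. According to the submitters' processing notes they were produced in Partek and Transcriptome Analysis Console. How probes were summarised, how arrays were normalized and the software versions were not stated in the sources read, and an unequal normalization would shift every difference. Of 41345 probe sets, 23521 carried 1 gene symbol, 1814 several and 16010 none, and only the first kind was used. Entrez identifiers matched RefSeq for 23328 and not for 193. No dim gene was removed.

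Linear models with a mean per group were fitted to 22180 genes on all 16 arrays with limma 3.58.1 in R 4.3.3 (10 residual degrees of freedom, prior 5.28), without a block. Tests were two-sided. The ± after a difference is its standard error and after a group mean the SD. Contrasts and alternatives are those of the closing section. The fit was tested on simulated data. The members and gene lists were chosen with earlier results of these data known. All 10 members are named, as are up to 4 genes per list with the smallest p in GMP minus CMP. The number of arrays limits the precision.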

Additional observations from a re-analysis of the deposited data

Results flagged for a closer look

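For Rhd the 3 antibiotic arrays lay wholly above control in CMPs (8.35 to 8.64 against 7.92 to 8.18) and wholly below it in cMoPs (4.51 to 4.61 against 4.72 and 4.88). The F test of the interaction, fitted with limma over all genes, gave an adjusted p of 0.772. For Ank1 the antibiotic arrays lay wholly below control in GMPs (4.03 to 4.25 against 4.37 and 4.43) and wholly above it in cMoPs (4.08 to 4.28 against 3.93 and 4.06), with an adjusted p of 0.893 in the same test. The Ank1 means after antibiotics in GMPs and in both cMoP groups were not shown to be above background. Opposite separation of the arrays flagged both genes, and neither difference between progenitors passed the test.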

How the results depend on the processing

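Each count of called members and each named difference was recomputed under 28 settings where it could be fitted: 12 of processing or design and 16 that leave out 1 array each. Counts kept 8 or 9 members for GMP minus CMP and for cMoP minus CMP, and 0 for each comparison of waters and for the interaction. The count of 8 came from testing only genes brighter than the median gene, which keeps 8 of the members. With that filter 2 members were called for cMoP minus GMP (Cldn13 at an adjusted p of 0.048, and Mfsd2b), and otherwise 1. Without each array in turn the counts were 9 to 9, 1 to 1 and 9 to 9 in the 3 comparisons of progenitors.

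Counts over all genes moved more: genes called for antibiotic water were 9 in CMPs (1 to 61 over the settings), 16 in GMPs (0 to 42), 29 in cMoPs (2 to 226) and 114 as the mean (41 to 353), with 1 for the interaction (1 to 24). The lowest in each progenitor came from fitting its arrays alone, and the 226 and 24 from leaving out cMoP control replicate 2. Between progenitors the lowest counts came within control water: 1786 against 3558 for GMP minus CMP, 385 against 1202 for cMoP minus GMP and 2271 against 4195 for cMoP minus CMP.

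Among single genes the sign turned for values near 0: Slc4a1 in cMoP minus CMP was 0.12 within control water, Ptprc in GMP minus CMP was 0.005 within control water, and Hba-x, at background in all groups, ran in GMP minus CMP from -0.168 to 0.0167 without 1 of the 2 GMP control arrays. The replicate numbers shared by the labels did not pair the arrays. Deviations of same-numbered arrays from their group means correlated at -0.03 to 0.03 over 7 pairs across waters and at -0.05 to 0.10 over 15 pairs across progenitors. In a group of 2 arrays the deviations mirror each other, so these pairs are not independent. Such low values do not exclude shared mice. With the number as a fixed replicate block the counts of members were 9, 1 and 9 between progenitors and 0 between waters, and likewise with the number within water as a random block (correlation 0.01). Where leaving out an array left 1 in a group, that array was assumed to vary like the others. Signal near background limits the low levels of GMPs and cMoPs.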
